A study of Mus musculus with 12 samples.

Results

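Dendritic cells grown from mouse bone marrow with all-trans retinoic acid (RA) were compared with cells grown with Ro41-5253 (Ro), a blocker of retinoic acid receptor alpha, in the absence of lipopolysaccharide (LPS). The comparison used the 4 arrays whose titles name these agents without LPS, of 12 arrays in all: 2 with RA and 2 with Ro, 1 of each pair from a BALB/c culture and 1 from a BL6 culture. Marrow of mice aged 6 to 8 weeks was cultured in all 12 cases for 10 days. GM-CSF, the growth factor that drives myeloid and dendritic cells from marrow, was present at 20 ng/ml in every culture. RA (10 nmol/ml) or Ro (100 nmol/ml) was added at the start of culture, so that the doses of the agents differed; the design text of the study gives the same figures without a volume. The other 8 arrays held cultures with neither agent (control) and the 3 conditions again with LPS (1 ug/ml), each in both strains. Each culture was 1 array of biotin-labelled RNA, amplified in a single round from 2 ug of total RNA. Nothing in the labels says whether the cultures of a strain came from separate animals, and every p-value below rests on the spread among the arrays alone, which may be technical.

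Retinoic acid is made from vitamin A and acts through nuclear receptors, RAR alpha, beta and gamma, which bind DNA as partners of the RXR receptors and switch between a repressing and an activating state when the ligand binds. In the gut, dendritic cells make retinoic acid and use it to imprint lymphocytes with homing to the intestine and to favour tolerance. Dendritic cells themselves pass from an immature state, in which they take up material, to a mature state, in which they carry costimulatory molecules and migrate to lymph nodes. Cultures with GM-CSF hold both dendritic cells and macrophages, and the share of each was not measured here.

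Signals below are the deposited probe set intensities, in the order BALB/c and then BL6, and changes are RA minus Ro on the scale of log2(signal + 16) with their standard error, relative to the median change of all 12429 tested genes, which lay at -0.20. Folds are computed from these changes, and none is given where the mean signal of either group was below 41.8, the highest median of any array. A gene was called when its limma p, adjusted over all tested genes (Benjamini-Hochberg), was below 0.05. This p tests the change before the median is taken off, so that the median gene itself lies on the lower side of its null of no raw change. The array covered 18193 genes, and those not tested did not pass a filter on low signals. The medians of the 4 arrays lay between 26.6 and 38.3, their hybridisation controls between 13790 and 15005, and the ratios of the 3' to the 5' control probe sets between 1.10 and 1.12 for Actb and between 0.768 and 0.807 for Gapdh. A few marker signals were set beside the dendritic cell label, and they do not show what share of the cells were dendritic cells. Cd74, the invariant chain of MHC class II, read 14178 and 13661 with RA and 13991 and 14083 with Ro, and Itgax, the integrin CD11c, 3441 and 2975 with RA and 5279.7 and 4284 with Ro. Flt3, a growth factor receptor of dendritic cells, was dim, at 5.77 and 51.5 with RA and 101 and 37.7 with Ro. Of 21 tested dendritic cell markers, 8 were lower with RA and none was higher, as given below. Lyz2, which encodes the lysozyme of macrophages, read 11241 and 11548 with RA and 11069 and 11934 with Ro. Of 14 lymphocyte and natural killer cell markers on the array, 9 did not pass the filter on low signals, and Ighm, an immunoglobulin gene, was among the 5 that did (1348 and 1634 with RA, 1627 and 739 with Ro).

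Between RA and Ro, 953 genes were called, 7.67% of those tested: 326 (2.62%) were higher with RA and 627 (5.04%) were lower. All 953 differed in the same direction in both strains, as did 70.9% of all tested genes. The 2 RA arrays lay wholly above or below the 2 Ro arrays for 936 of the 953 called genes and for 44.6% of all tested genes. Relative changes beyond 2 on the log2 scale were seen for 155 of the higher and 173 of the lower genes. After quantile normalization, which gives every array the same distribution of signals, 563 genes were higher (4.53%) and 530 lower (4.26%), so that 51.5% of the called genes were higher in place of 34.2%. Of the genes called at the deposited scaling, 324 of the 326 higher and 501 of the 627 lower genes were also called after quantile normalization. Leaving out any 1 of the 4 arrays lowered the number of called genes to between 424 and 464. It was 464 without the RA BALB/c array, 424 without the Ro BALB/c array, 458 without the RA BL6 array and 462 without the Ro BL6 array, with 127 to 178 genes higher and 283 to 324 lower. Without strain in the model 434 genes were called, and with these 4 arrays fitted alone 1883.

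**Figure D1:**
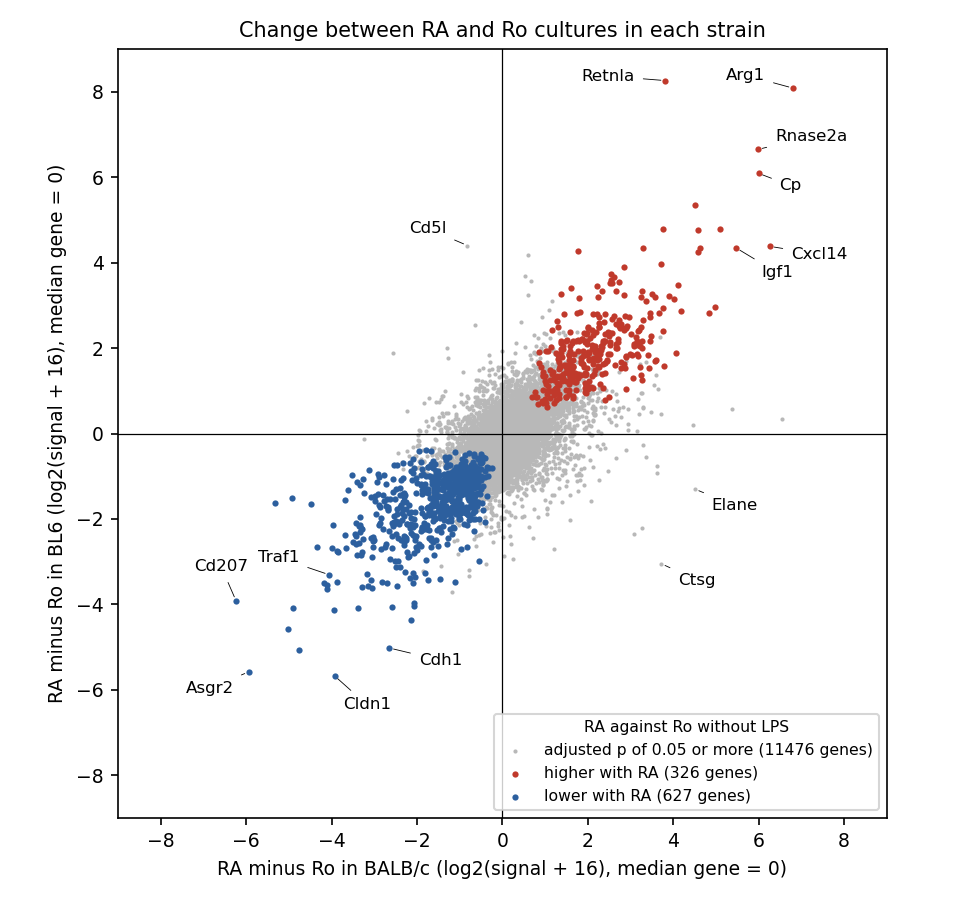
Each point is 1 of 12429 tested genes, plotted by RA minus Ro in BALB/c (horizontal) and in BL6 (vertical), on the scale of log2(signal + 16) with the median gene at 0. The 326 genes called higher (red) lie in the upper right and the 627 called lower (blue) in the lower left, while Elane and Ctsg (grey, not called) differ in opposite directions in the 2 strains.

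Of 8 tested members of a list of genes known to respond directly to retinoic acid, 3 were higher with RA and none was lower, with a median change of 1.30, where 2.62% of all tested genes were higher. Dhrs3, a reductase that returns retinal to retinol and limits the making of retinoic acid, read 1622 and 1907 with RA and 245 and 215 with Ro. Both RA arrays lay above both Ro arrays, a change of 3.05 ± 0.28 or 8.31-fold (limma adjusted p = 3.41e-04). Hic1, a transcriptional repressor, read 389.6 and 124 with RA and 29.1 and 2.77 with Ro, where its signal was below the highest array median, and changed by 3.24 ± 0.37 (limma adjusted p = 6.75e-04), or by 2.04 with 64 added before the logarithm. Cyp26a1, which breaks retinoic acid down, read 139.7 and 42.1 with RA and 16.6 and 4.11 with Ro and changed by 2.09 ± 0.44 (limma adjusted p = 0.0242). Its signal was above the highest array median in the RA cultures only, and the call was lost without the RA BALB/c, the Ro BALB/c or the Ro BL6 array (adjusted p up to 0.204). The change of Cyp26a1 went from 1.14 with 64 added to 3.27 with 1 added.

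The other 5 classical response genes were not called. Rarb, the gene of the beta receptor, read 122 and 50.5 with RA and 30.3 and 20.1 with Ro, with a change of 1.43 ± 0.36 (limma adjusted p = 0.068), and it was called after quantile normalization (adjusted p = 0.0309). Cyp26b1, a second enzyme of retinoic acid breakdown, read 84.3 and 81.3 with RA and 30.98 and 37.6 with Ro, a change of 1.18 ± 0.41. For both genes the RA arrays lay above the Ro arrays. Tgm2, a transglutaminase, changed by 0.85 ± 0.25, Nrip1, a corepressor of nuclear receptors, by -0.36 ± 0.31, and Asb2, a ubiquitin ligase subunit, by -0.65 ± 0.85. Rara, the receptor that Ro blocks, read 195 and 49.5 with RA and 282 and 80.5 with Ro, a change of -0.33 ± 0.38 (limma adjusted p = 0.479). Its BALB/c signals were above its BL6 signals in both conditions, and the groups overlapped. Aldh1a2, the enzyme that makes retinoic acid in dendritic cells, read 1291 and 591 with RA and 1011 and 506 with Ro, which also overlapped (0.48 ± 0.25, limma adjusted p = 0.565). In the wider list of retinoid receptors and enzymes, Dhrs3 and Cyp26a1 were the 2 of 17 tested members called.

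RAR partners bind pairs of 6-base half-sites, and the direct repeat with a spacer of 5 bases, DR5, is their best known form. DR5 was searched on both strands of RefSeq promoter windows of mouse build GRCm38.p6, from 250 bases before to 50 after each start. It was found in 31 of 27025 genes (0.115%), in 1 of the 252 genes called higher that have a window and in none of the 504 called lower. The 2 classical response genes of 7 with a window that held it are shown because they give the sequence that the receptor is known to read. The 120 bases before the start are printed on the strand of the gene with the match in capitals. For Rarb they lie at chr14:16575477-16575596 on the minus strand and the match spans bases -53 to -37 from the start. For Cyp26a1 they lie at chr19:37697688-37697807 on the plus strand and the match spans bases -32 to -16. A match is a description of letters and shows no binding.
Rarb: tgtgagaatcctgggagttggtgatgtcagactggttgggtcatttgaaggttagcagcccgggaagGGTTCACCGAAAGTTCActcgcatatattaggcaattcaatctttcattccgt
Cyp26a1: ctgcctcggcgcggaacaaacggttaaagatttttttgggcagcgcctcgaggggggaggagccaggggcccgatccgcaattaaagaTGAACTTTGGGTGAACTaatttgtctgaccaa

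Several of the largest differences in favour of RA were in genes of alternatively activated macrophages. Arg1, the arginase that turns arginine into ornithine and urea, read 1882 and 4713 with RA and 3.53 and 3.93 with Ro. Both Ro arrays were far below the highest array median, and the change was 7.45 ± 0.49 (limma adjusted p = 8.43e-05). Rnase2a, an eosinophil-associated ribonuclease, read 6592 and 5772 with RA and 103 and 49.98 with Ro, a change of 6.32 ± 0.27 or 80.1-fold (limma adjusted p = 1.90e-06). Retnla, a secreted protein induced by interleukin 4, read 9404 and 5599 with RA and 755 and 4.95 with Ro. Its groups did not overlap, but the BL6 culture with Ro stood lowest: the change was 6.04 ± 0.97 (limma adjusted p = 0.00375) and 3.81 without that array. Ccl24, a chemokine for eosinophils, read 2463 and 475 with RA and 99.3 and 11.5 with Ro (4.49 ± 0.47, 22.5-fold). Fn1, fibronectin, read 6701 and 4519 with RA and 555 and 173 with Ro (4.27 ± 0.43, 19.3-fold). Of the 25 tested alternative activation genes, 8 were higher with RA and 5 were lower, with a median change of 0.70. The others higher were Mrc1, the mannose receptor, Stab1, a scavenger receptor, and Clec7a, the receptor of fungal glucans. The 5 lower ones were Cdh1, Ccl22, Irf4, Pdcd1lg2 and Ccl17, which dendritic cells also express. Without the RA BALB/c array 5 genes of the list were higher. The calls of Mrc1 (adjusted p up to 0.321), Stab1 (0.0632), Clec7a (0.218), Cdh1 (0.104), Irf4 (0.139) and Pdcd1lg2 (0.083) were each lost without at least 1 of the arrays, and the change of Ccl22 moved from -2.22 to -1.30 without the RA BALB/c array.

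Of 15 tested genes of arginine, nitric oxide and polyamine metabolism, Arg1 and Slc7a2, a transporter that brings arginine into the cell, were higher with RA and none was lower. Slc7a2 read 851 and 1149 with RA and 235 and 281 with Ro, with no overlap (2.08 ± 0.22, 4.23-fold, limma adjusted p = 5.42e-04). Nos2, the inducible nitric oxide synthase that competes with arginase for arginine, changed by 0.21 ± 0.38 and Arg2, the mitochondrial arginase, by 0.17 ± 0.41. Neither was called, and their groups overlapped. The median change of the list was 0.09.

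**Figure D2:**
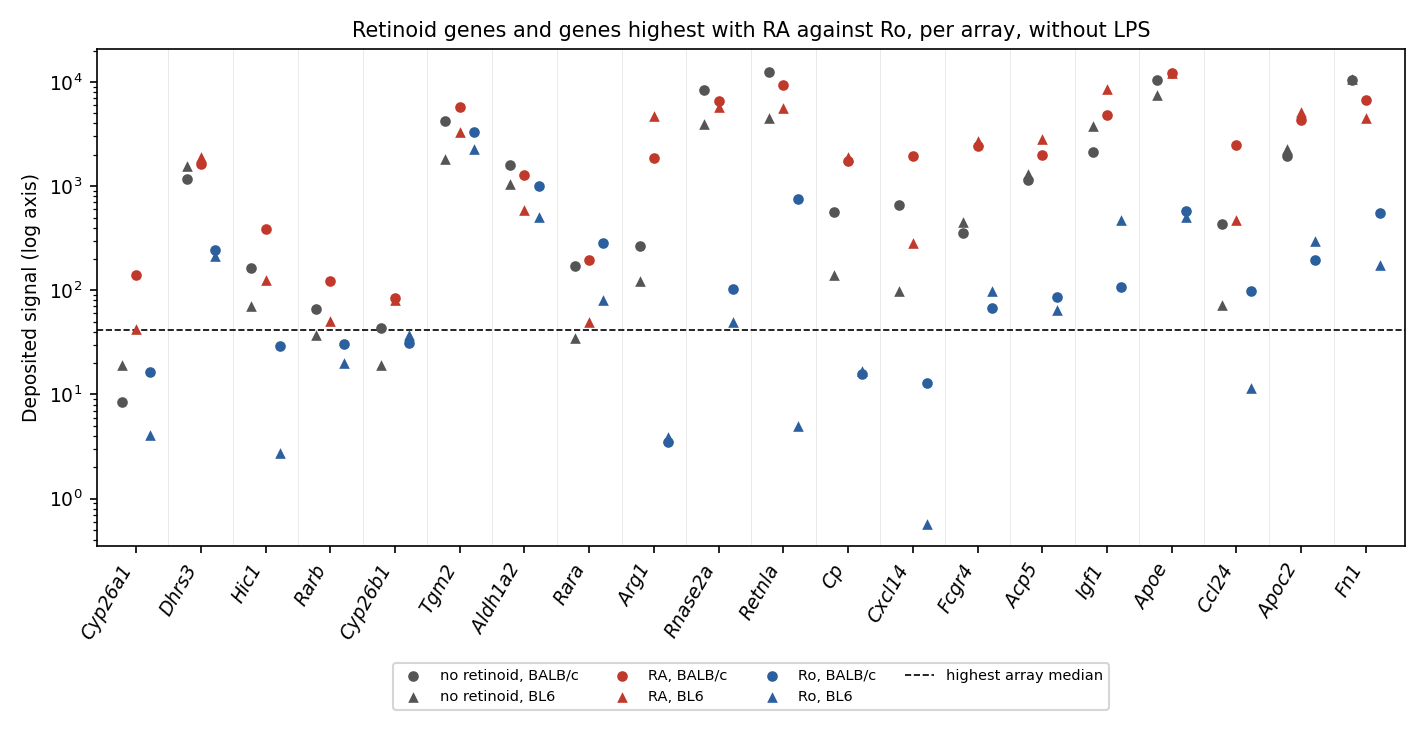
Deposited signal on a log axis for 8 retinoid genes and the 12 genes with the largest differences in favour of RA, on the 6 arrays without LPS (grey control, red RA, blue Ro); circles are BALB/c, triangles BL6, and the dashed line is the highest array median (41.8). Arg1 reads 1882 and 4713 with RA and 3.53 and 3.93 with Ro, with the control arrays in between, while Rara, Aldh1a2, Tgm2, Cyp26b1 and Rarb were not called.

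Genes that macrophages use to recognise and take up material were also higher with RA. In the list of monocyte and macrophage markers 7 of 23 tested genes were higher and none lower, with a median of 0.86. Apoe, the apolipoprotein that carries lipid out of macrophages, read 12308 and 12312 with RA and 573 and 502 with Ro, a difference of 4.68 ± 0.51 or 25.6-fold (limma adjusted p = 5.30e-04). Trem2, a lipid-sensing receptor, read 2812 and 4123 with RA and 238 and 655 with Ro (3.25 ± 0.38, 9.52-fold). Cd68, a glycoprotein of the lysosomal membrane, read 7494 and 10057 with RA and 2175 and 3998 with Ro (1.75 ± 0.18, 3.37-fold). None of these 3 genes overlapped between the groups. Maf, a macrophage transcription factor, Gpnmb, a glycoprotein of phagocytes, Fn1 and Mrc1 made up the rest of the 7. The calls of Maf and Gpnmb were lost without the RA or the Ro BALB/c array (adjusted p up to 0.0639 and 0.0958), that of Mrc1 without 3 of the arrays (up to 0.321), and 4 markers were called without the RA BALB/c array. Several defining markers gave no call: Csf1r, the receptor for macrophage growth factor, read 10905 and 10872 with RA and 10051 and 9236 with Ro, and Adgre1, which encodes F4/80, read 6101 and 2930.4 with RA and 3042 and 2802 with Ro. The summed signal of the 23 markers was 125021 and 126258 with RA and 67285 and 72060 with Ro. Fewer cells of a type and less RNA per cell cannot be told apart in RNA from whole cultures.

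Among Fc receptors and genes of complement and coagulation, 6 of 25 were higher with RA and none was lower, with a median of 0.84. Fcgr4, a receptor for IgG, read 2458 and 2720.3 with RA and 67.03 and 97.5 with Ro, a change of 4.94 ± 0.50 or 30.8-fold (limma adjusted p = 4.32e-04). C3ar1, the receptor of the complement fragment C3a, read 3455 and 2571 with RA and 815 and 513 with Ro (2.38 ± 0.35, 5.19-fold). C5ar1, the receptor of C5a, and the coagulation genes Pros1, F5 and F7 completed the 6. The RA and Ro arrays overlapped for C5ar1 and F7, and each of these 4 calls was lost without at least 1 array (adjusted p up to 0.34 for F5, 0.198 for F7, 0.172 for C5ar1 and 0.0547 for Pros1). Leaving out any of the 4 arrays left 3 genes of the list called. In the list of genes for the uptake of apoptotic cells, 6 of 19 were higher and none lower, with a median of 0.85. Gas6, a bridge between dying cells and the TAM receptors, read 609.8 and 1375 with RA and 49.3 and 212 with Ro, without overlap (3.14 ± 0.44, 8.80-fold). Mertk, one of those receptors, read 417 and 1758 with RA and 129.6 and 854 with Ro and was not called (limma adjusted p = 0.0621); it was called after quantile normalization (adjusted p = 0.0461). Trem2, Stab1, Stab2, Pros1 and the lipid exporter Abca1 were the others called. Stab1 lost its call without the RA BALB/c array, Stab2 and Abca1 without any 1 of the 4 (adjusted p up to 0.127 and 0.207), and 3 genes of the list were called without the RA BALB/c array.

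Of 28 genes of lipid uptake, storage and efflux, 6 were higher with RA and none was lower, with a median of 0.76. Apoc2, the cofactor of lipoprotein lipase, read 4346 and 5194 with RA and 195 and 299 with Ro (4.41 ± 0.33, 21.3-fold, limma adjusted p = 9.36e-05). Fabp4, a fatty acid binding protein, read 289 and 3280.4 with RA and 40.8 and 282 with Ro, so that the BALB/c culture with RA was just above the BL6 culture with Ro (3.15 ± 0.54). Within each strain the RA array was the higher. The call of Fabp4 was lost without either BL6 array (adjusted p up to 0.0815), and those of Apoc1, Abca1 and Plin2, a coat protein of lipid droplets, without at least 3 arrays (up to 0.132, 0.207 and 0.171). The count was 3 without the RA BALB/c array, 2 without the RA BL6 array and 2 without the Ro BL6 array. Cholesterol synthesis had no gene higher and 2 of 19 lower with RA, where 5.04% of all tested genes were lower. So few calls say little about the list. They were Srebf2, the master regulator of this synthesis (-1.04 ± 0.23), and the isomerase gene Idi1 (-1.25 ± 0.36). Both calls were lost without any 1 of the 4 arrays (adjusted p up to 0.105 and 0.235). The change of Idi1 was -0.82 without the RA BALB/c array.

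Of the 30 gene lists, that of lysosomal enzymes and membrane proteins gave the largest number of calls in favour of RA: 12 of 26 were higher and none was lower, with a median of 0.83. Lgmn, an endopeptidase of the lysosome, read 6636 and 6187 with RA and 1799 and 2122 with Ro (1.91 ± 0.18, 3.75-fold, limma adjusted p = 4.21e-04). Atp6v0d2, a subunit of the proton pump, read 3035 and 5495 with RA and 435 and 942 with Ro (2.84 ± 0.41, 7.17-fold). Tpp1, a peptidase, changed by 1.35 ± 0.16, Ctsd, cathepsin D, by 1.27 ± 0.16 and Gla, a galactosidase, by 2.02 ± 0.29. For each of these 5 genes both RA arrays were above both Ro arrays. Cd68 is also in the list, and the remaining 6 called members, Ctsl, Ctsa, Ctsb, Lamp1, Lamp2 and Hexa, lost their calls without at least 1 array (adjusted p up to 0.0836, 0.0945, 0.119, 0.113, 0.294 and 0.247), and 6 members were called without the Ro BALB/c array. The call of Tpp1 was also lost without the strain block (adjusted p = 0.0522). Acp5, the tartrate-resistant acid phosphatase of osteoclasts and macrophages, read 1998 and 2825 with RA and 85.8 and 64.2 with Ro (4.93 ± 0.40, 30.4-fold).

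Of 22 genes of oxygen radical and iron handling, 6 were higher with RA and 2 lower, with a median of 0.55. Cp, ceruloplasmin, which oxidises iron on its way out of the cell, read 1759 and 1921 with RA and 15.8 and 16.6 with Ro, below the highest array median (6.05 ± 0.55, limma adjusted p = 2.60e-04). Hmox1, which breaks heme down, read 1206 and 2164 with RA and 332 and 429 with Ro (2.25 ± 0.30, 4.77-fold). Slc40a1, the iron exporter ferroportin, read 549 and 1495 with RA and 85.99 and 156 with Ro. Hp, the haemoglobin scavenger haptoglobin, changed by 2.69 ± 0.48. Tfrc, the receptor that imports iron, was lower with RA: it read 1444 and 496 with RA and 4834 and 2805 with Ro (-1.90 ± 0.47, 3.72-fold). The calls of Slc40a1 (adjusted p up to 0.237), Hp (0.104) and Tfrc (0.204) were lost without some of the arrays. The call of Slc11a1, a metal transporter of phagosomes, was lost without 3 of the arrays (0.222). Those of Cybb, an oxidase subunit (0.244), and Txnrd1, a thioredoxin reductase that was lower (0.285), were lost without any 1 of the 4. The count of higher genes was 2 without the Ro BALB/c array and 3 without the RA BL6 or the Ro BL6 array.

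Of 23 growth factors and their receptors, 6 were higher with RA and none was lower. Igf1, insulin-like growth factor 1, read 4797 and 8608 with RA and 108 and 472 with Ro, a difference of 4.91 ± 0.34 or 30.1-fold (limma adjusted p = 9.36e-05). Pdgfc, a platelet-derived growth factor, read 829.97 and 1056 with RA and 72.98 and 169 with Ro (3.09 ± 0.30, 8.54-fold). Vegfa, which drives vessel growth, changed by 1.95 ± 0.24 and Hbegf, a ligand of the epidermal growth factor receptor, by 2.03 ± 0.30. Kitl and Vegfb were also called, but not without any 1 of the 4 arrays (adjusted p up to 0.188 and 0.207). Of 20 matrix genes 5 were higher and 2 lower. Mmp8, a collagenase of neutrophils and macrophages, read 8903 and 6465 with RA and 1059 and 1313 with Ro (2.87 ± 0.41, 7.31-fold). Mmp9, a gelatinase, read 2482 and 331 with RA and 84.4 and 39.9 with Ro (3.84 ± 0.61). Adam19, a membrane protease, was lower with RA at 143 and 78.4 against 1075 and 560.01 (-2.49 ± 0.34, 5.63-fold), a call lost without the strain block (adjusted p = 0.0551). The call of Mmp9 was lost without the RA or the Ro BALB/c array (adjusted p up to 0.0537), and the count of higher matrix genes was 2 without either of these arrays and 3 without the RA BL6 array. Pattern recognition receptors had 4 of 28 genes higher and 1 lower. Tlr7, the sensor of single-stranded RNA, read 420.1 and 405 with RA and 38.3 and 74.4 with Ro (2.81 ± 0.35, 7.02-fold), and Tlr1, a sensor of lipopeptides, changed by 2.34 ± 0.39. Their median change was 0.85, but 1 was called without the RA BALB/c array and 2 without the Ro BALB/c or the RA BL6 array; Tlr1 was lost without either BALB/c array (adjusted p up to 0.0701).

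Genes of dendritic cell maturation were lower with RA. Of 31 tested maturation genes 21 were lower with RA than with Ro and none was higher, with a median change of -1.58. Traf1, an adaptor of the TNF receptor family, read 36.9 and 88.5 with RA and 997 and 1172 with Ro, a difference of -3.68 ± 0.29 or 12.8-fold (limma adjusted p = 9.36e-05). Ccr7, the receptor that leads dendritic cells to lymph nodes, read 534 and 830.1 with RA and 6034 and 5347 with Ro (-2.86 ± 0.36, 7.27-fold). Cd40, the costimulatory receptor that T cells engage, read 109 and 65.5 with RA and 940.5 and 551 with Ro (-2.67 ± 0.26, 6.34-fold). In none of these 3 genes did the groups overlap. Cd86, a ligand of CD28 on T cells, read 487 and 324 with RA and 2849 and 2052 with Ro (-2.36 ± 0.29, 5.12-fold). Its relative Cd80 changed by -1.69 ± 0.25 and Cd83, a surface marker of mature dendritic cells, by -1.87 ± 0.29. Fscn1, which bundles actin in dendrites, read 620.2 and 1193 with RA and 7808 and 5964 with Ro (-2.76 ± 0.37, 6.79-fold). Il12b, a subunit of interleukins 12 and 23, was dim, at 22.5 and 53.1 with RA and 214 and 429 with Ro (-2.43 ± 0.44). Stat4, which relays interleukin 12 signals, changed by -3.15 ± 0.38, and the T cell ligands Cd70 and Tnfsf4 by -2.52 ± 0.30 (-1.52 with 64 added before the logarithm) and -2.49 ± 0.29. Calls fell to between 16 and 19 when 1 array was left out. The calls lost were those of Icam1, Marcksl1, Slamf1, Tnfrsf9 and Pdcd1lg2 (adjusted p up to 0.118, 0.275, 0.183, 0.075 and 0.083). The 10 members not called included Cd274, the ligand PD-L1 (-0.28 ± 0.21), and Cd44 (-0.35 ± 0.21). After quantile normalization 21 were again lower and none higher.

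**Figure D3:**
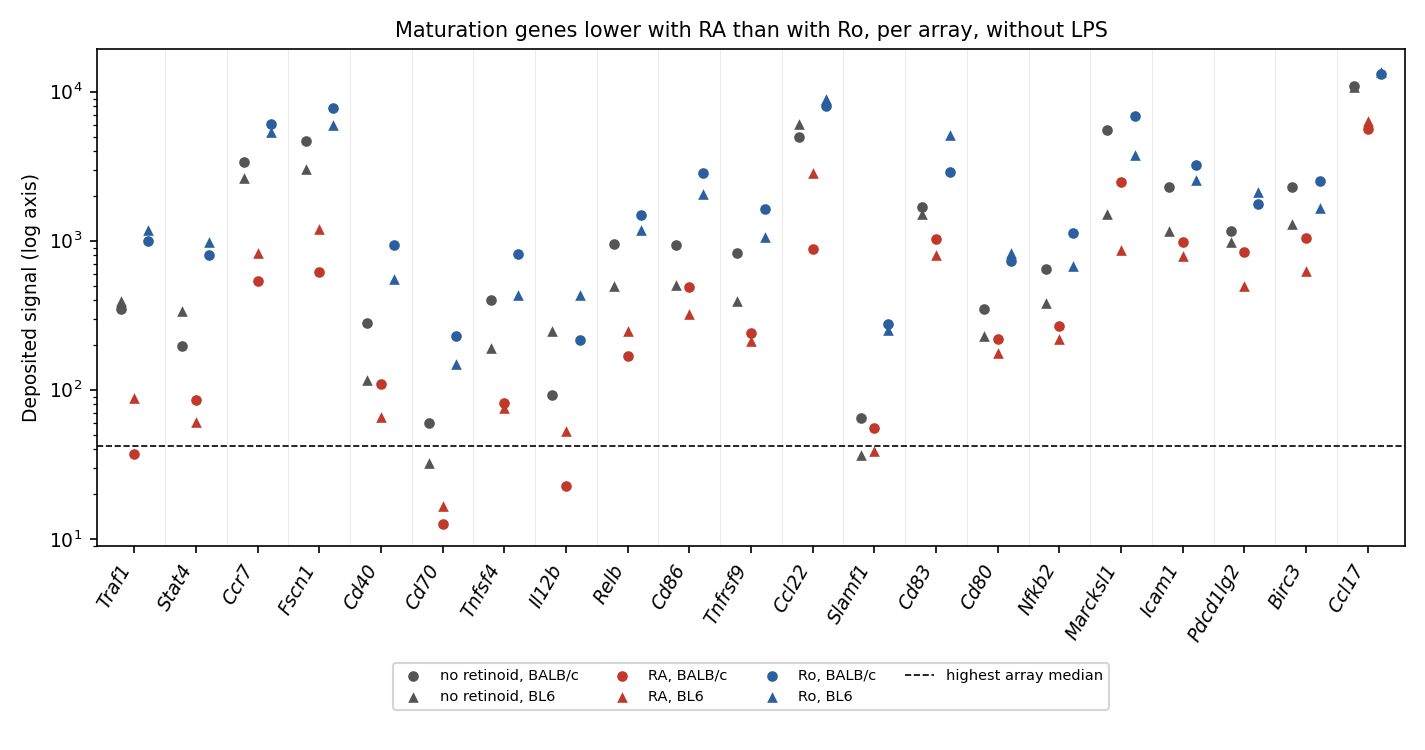
Deposited signal on a log axis for the 21 maturation genes that were lower with RA than with Ro, on the 6 arrays without LPS (grey control, red RA, blue Ro); circles are BALB/c, triangles BL6, and the dashed line is the highest array median (41.8). For each gene both arrays with Ro (blue) lie above both arrays with RA (red), as for Ccr7 at 6034 and 5347 against 534 and 830.1.

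Genes of NF-kappaB, the transcription factor family that drives much of maturation, lay on the same side. Of 22 tested genes of NF-kappaB signalling and feedback, 14 were lower with RA and 1 was higher, with a median of -0.85. The family members Relb, Nfkb2 and Rel were among the lower genes: Relb read 169 and 247 with RA and 1498 and 1181 with Ro (-2.41 ± 0.34, 5.31-fold), Nfkb2 268 and 217 with RA and 1127 and 674 with Ro (-1.58 ± 0.24), and Rel 132 and 74.1 with RA and 431 and 245 with Ro (-1.36 ± 0.30). Rela, the most widely expressed member, changed by -0.34 ± 0.22 and was not called (limma adjusted p = 0.19). The inhibitors were lower too: Nfkbie changed by -1.98 ± 0.34, Tnfaip3, the deubiquitinase A20, by -1.40 ± 0.21, and Nfkbia, at 6480.1 and 6904 with RA and 10812 and 12037 with Ro, by -0.57 ± 0.12 (-1.09 as the mean over its probe sets), a call lost without the intensity trend of the model (adjusted p = 0.0616). Gadd45b, a stress and survival gene, read 426 and 531 with RA and 1849 and 2898 with Ro (-2.04 ± 0.28, 4.12-fold). Ikbke, a kinase that acts on interferon regulatory factors, was the 1 higher gene, at 2020.1 and 1297 with RA and 337 and 246 with Ro (2.63 ± 0.26, 6.17-fold, limma adjusted p = 4.52e-04). For these genes the RA and Ro arrays did not overlap. Between 9 and 10 members were lower with 1 array left out, and it was 9 without the RA BALB/c, the Ro BALB/c or the Ro BL6 array. Rel lost its call without any 1 of the arrays (adjusted p up to 0.0787), as did Icam1 (0.118) and Traf2 (0.248). Traf2 was also not called after quantile normalization. Tnip1 (0.115), Birc2 (0.144) and Nfkbib (0.115) lost their calls without some of the arrays.

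The kappaB motif, to which NF-kappaB dimers bind, was searched in the same promoter windows on both strands. It was found in 1388 of 27025 genes (5.14%) and in 622 of the 10065 tested genes that have a window (6.18%). Among genes called lower with RA it was found in 50 of 504 (9.92%) and among those called higher in 15 of 252 (5.95%). In the NF-kappaB list 8 of 19 genes with a window held it (42.1%). Among the 14 called genes of the list with a window it was 6 (42.9%), nearly the same share. The 4 windows printed are those of called members whose match lies in the 120 bases before the start, since these members are at once parts or inhibitors of the pathway and hold its motif. They are written on the strand of the gene, with every match in capitals, adjoining matches joined. Nfkb2 lies at chr19:46304617-46304736 on the plus strand and holds more than 1 match. Nfkbia lies at chr12:55492648-55492767, Rel at chr11:23770970-23771089 and Tnip1 at chr11:54962941-54963060, all on the minus strand. The letters show no binding in these cells.
Nfkb2: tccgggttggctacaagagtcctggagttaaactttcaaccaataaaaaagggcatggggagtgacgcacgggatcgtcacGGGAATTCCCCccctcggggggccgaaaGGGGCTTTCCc
Nfkbia: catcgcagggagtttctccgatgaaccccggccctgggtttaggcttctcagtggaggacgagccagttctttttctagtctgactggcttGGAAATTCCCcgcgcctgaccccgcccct
Rel: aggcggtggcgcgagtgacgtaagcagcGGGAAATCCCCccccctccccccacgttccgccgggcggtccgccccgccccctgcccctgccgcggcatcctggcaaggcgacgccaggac
Tnip1: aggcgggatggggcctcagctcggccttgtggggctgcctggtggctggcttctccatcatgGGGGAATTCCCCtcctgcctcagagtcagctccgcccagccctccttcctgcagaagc

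Markers of conventional dendritic cells were lower with RA in 8 of 21 tested genes and higher in none, with a median of -0.68. Zbtb46, a transcription factor of that lineage, read 26.2 and 51.2 with RA and 501 and 391 with Ro (-2.91 ± 0.31, limma adjusted p = 3.41e-04). Ciita, the master regulator of MHC class II genes, read 449.8 and 173 with RA and 2903 and 1712 with Ro (-2.72 ± 0.33, 6.59-fold). Cd209a, a lectin of the DC-SIGN family, read 589 and 257 with RA and 2298 and 3379 with Ro (-2.59 ± 0.44, 6.000-fold). The groups were apart for all 3. Btla, an inhibitory receptor, changed by -3.06 ± 0.55, and Irf4, Dpp4, Spib and Itgae were also lower. Without the Ro BALB/c or the RA BL6 array 5 were called. Btla lost its call without the RA BALB/c array (adjusted p = 0.0588) and moved to -1.88 without the Ro BALB/c array, and Irf4 (0.139), Dpp4 (0.0928), Spib (0.162) and Itgae (0.0964) lost theirs without at least 2. The summed signal of the 21 markers was 70711 and 57777 with RA and 86512 and 82699.8 with Ro. The MHC class II genes themselves were not called: H2-Aa read 12768 and 9163 with RA and 12188 and 11899.6 with Ro (0.05 ± 0.15). Of 14 genes of class II presentation, Ciita and the subunits of H2-O, which restrains peptide loading, were the 3 lower ones. H2-Ob read 74.9 and 26.1 with RA and 1521 and 521 with Ro (-3.68 ± 0.42, 12.8-fold; adjusted p = 0.079 without the strain block), and H2-Oa 269.7 and 311 with RA and 1781 and 2048 with Ro (-2.45 ± 0.40, 5.48-fold). Without the RA BALB/c array 5 class II genes were lower.

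Several of the largest differences in favour of Ro were in genes known from Langerhans cells and epithelia. Cd207, which encodes langerin, the lectin that marks Langerhans cells, read 3.19 and 2.12 with RA and 1649 and 298 with Ro (-5.08 ± 0.56, limma adjusted p = 4.37e-04). Both RA arrays and both control arrays (6.44 and 4.85) were below the highest array median. Cldn1, a tight junction protein, read 59.97 and 5.33 with RA and 1311 and 1239.7 with Ro (-4.80 ± 0.41), and Cdh1, E-cadherin, 426 and 48.01 with RA and 3159 and 2377 with Ro (-3.83 ± 0.76, 14.3-fold). With Itgae and Runx3, a transcription factor, 5 of 11 tested genes of the list were lower and none was higher. Epcam, an epithelial adhesion molecule, changed by 0.01 ± 0.42 at the probe set used and by -1.66 when all its probe sets were averaged, so that its probe sets disagreed. Without either BL6 array 3 of the 5 were called: Cdh1 and Runx3 lost their calls there (adjusted p up to 0.104 and 0.212), and Itgae without either BALB/c array, with a change of -1.12 without the RA BALB/c array (up to 0.0964).

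On the scale used, the largest difference in favour of Ro among called genes was that of Asgr2, a subunit of the asialoglycoprotein receptor. It read 63.8 and 92.2 with RA and 5628 and 5941 with Ro (-5.76 ± 0.47, 54.3-fold, limma adjusted p = 9.36e-05). Nr4a3, an orphan nuclear receptor, read 249 and 280.5 with RA and 5189.6 and 4242 with Ro (-3.87 ± 0.31, 14.6-fold; -1.54 as the mean over its probe sets). The groups lay far apart for these 2 genes, and the strains were close within each. With other processing the change of Asgr2 went from -6.04 to -5.22 and that of Cd207 from -7.37 to -3.41, so that their order can differ. Il18r1, a subunit of the interleukin 18 receptor, read 27.7 and 19.5 with RA and 1610.4 and 955 with Ro (-4.80 ± 0.38), and Cd72, a lectin best known from B cells, 73.8 and 29.7 with RA and 1772 and 594 with Ro (-3.83 ± 0.34, 14.2-fold). Nedd4, a ubiquitin ligase, changed by -4.04 ± 0.36, S1pr3, a receptor of sphingosine 1-phosphate, by -3.84 ± 0.56 (-2.25 as the mean over its probe sets), Bex6 by -4.92 ± 0.40, Kctd14 by -4.49 ± 0.38 and the synaptotagmin gene Syt9 by -3.73 ± 0.45. Of 30 transcription factors of dendritic cells and macrophages, 8 were lower with RA and 2 were higher. Cebpb, a factor of macrophage and granulocyte genes, was higher with RA, at 3869.9 and 3157 against 1188 and 934 (1.92 ± 0.18, 3.77-fold), and Maf was the other. Bcl6, a repressor, was lower (-2.27 ± 0.28), and so were Nr4a3, Zbtb46, Relb, Irf4, Spib, Runx3 and Id2. Without the Ro BALB/c, the RA BL6 or the Ro BL6 array 5 were lower. Id2 (adjusted p up to 0.165), Irf4 (0.139), Spib (0.162), Runx3 (0.212) and Maf (0.0639) were the factors that lost their calls without at least 1 array, and Id2 was not called after quantile normalization.

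Chemokines were split between the agents. Of 26 tested genes 6 were higher with RA and 4 were lower. Cxcl14, a chemokine of epithelia and macrophages, read 1929 and 285 with RA and 12.9 and 0.573 with Ro (5.33 ± 0.60, limma adjusted p = 6.25e-04). Ccl3, an inflammatory chemokine of macrophages, read 3319 and 3609 with RA and 912 and 867 with Ro (2.14 ± 0.31). Ccl24 stood with them, and Pf4, Ccl8, whose groups overlapped, and Ccl9 were the other 3. Their calls did not hold without at least 2 of the arrays (adjusted p up to 0.0562, 0.338 and 0.253). The 4 lower chemokines were Ccl22 and Ccl17, both ligands of CCR4, and Cxcl16 and Cx3cl1, which are made as membrane-bound forms. Ccl22 read 876 and 2832 with RA and 8073 and 8959 with Ro (-2.22 ± 0.33; -1.30 without the RA BALB/c array), and Ccl17 5627 and 6385 with RA and 13068 and 13586 with Ro (-0.95 ± 0.11, 1.93-fold). Cxcl16 changed by -1.21 ± 0.16 and Cx3cl1 by -1.66 ± 0.27. Higher chemokines numbered 3 without the RA or the Ro BALB/c array. Among chemokine receptors and homing integrins Ccr7, Itgae and Itgal were lower and the decoy receptor Ccrl2 was higher, of 21 tested. The calls of Itgae, Itgal and Ccrl2 were lost without at least 2 arrays (adjusted p up to 0.0964, 0.103 and 0.0827), and Ccr7 alone of the 3 lower genes was called without the RA or the Ro BALB/c array.

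Of 24 tested cytokine genes, 2 were called, a share near that of all tested genes (7.67%). Il1a was higher with RA, at 179 and 262 against 48.2 and 19.2 (2.49 ± 0.42), and Il12b was lower; the call of Il1a was lost without either BL6 array (adjusted p up to 0.0881). Of the 24, 6 were below the highest array median on all 4 arrays. Tnf read 308 and 103 with RA and 625 and 505 with Ro, without overlap, but with a standard error that kept it from the threshold (-1.35 ± 0.85, limma adjusted p = 0.331). Of 31 interferon stimulated genes 1 was higher and 1 lower, again a share near that of all tested genes. Rsad2, an antiviral enzyme, was higher (2.38 ± 0.23), at 1167 and 1039 with RA and 199.8 and 266 with Ro. Mx1, an antiviral GTPase, was lower (-1.80 ± 0.50), a call lost without the Ro BALB/c, the RA BL6 or the Ro BL6 array (adjusted p up to 0.312). None of 38 cell cycle genes was called by limma, with a median change of -0.54. Of the 38, 8 had an unadjusted limma p below 0.05, a share near that of all tested genes (2642 of 12429).

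Markers of other cell types that marrow cultures can hold moved with some of these groups. Of 19 tested granulocyte markers Mmp8 and Mmp9 were higher with RA, with a median of 1.04. The summed signal of the list was 68110 and 31411 with RA and 12853 and 38255 with Ro, so that the groups overlapped and the BALB/c culture with RA was highest. S100a8, a neutrophil protein, read 13426 and 8812 with RA and 3565 and 10297 with Ro, and Elane, neutrophil elastase, 1050.1 and 148 with RA and 37.7 and 449 with Ro; neither was called. Of 10 tested markers of eosinophils, basophils and mast cells, Prg2 and Cpa3 were lower with RA. Prg2, an eosinophil granule protein, read 14.01 and 64.3 with RA and 128 and 1427 with Ro, and Cpa3, a mast cell protease, 14.8 and 118 with RA and 81.9 and 1624 with Ro. The BL6 culture with Ro was highest for both, the RA and Ro arrays overlapped for Cpa3, and both calls were lost after quantile normalization and without 3 of the 4 arrays (adjusted p up to 0.26 and 0.296). The summed signal of that list was 1888 and 786 with RA and 843 and 4672 with Ro. Among erythroid markers Car2, a carbonic anhydrase, was lower with RA at 390.2 and 380.5 against 4893 and 3266 (-3.12 ± 0.38, 8.70-fold), as was Tfrc (adjusted p up to 0.204 with 1 array left out). The summed signal of 4 tested erythroid markers was 1891 and 941 with RA and 9770 and 6146 with Ro, nearly all of it from Car2 and Tfrc. The other 2 tested members were not called, and 4 of the 8 on the array did not pass the filter on low signals. Siglech, a plasmacytoid dendritic cell marker, was the 1 of 7 in its list called (-1.35 ± 0.40), a call lost after quantile normalization and without 3 of the arrays (up to 0.398), with a change of -0.72 without the Ro BALB/c array. None of 5 tested lymphocyte markers was called by limma, 2 of them at an unadjusted p below 0.05, where 2642 of all 12429 tested genes were. The part of other cell types in the differences between RA and Ro was not tested.

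**Figure D4:**
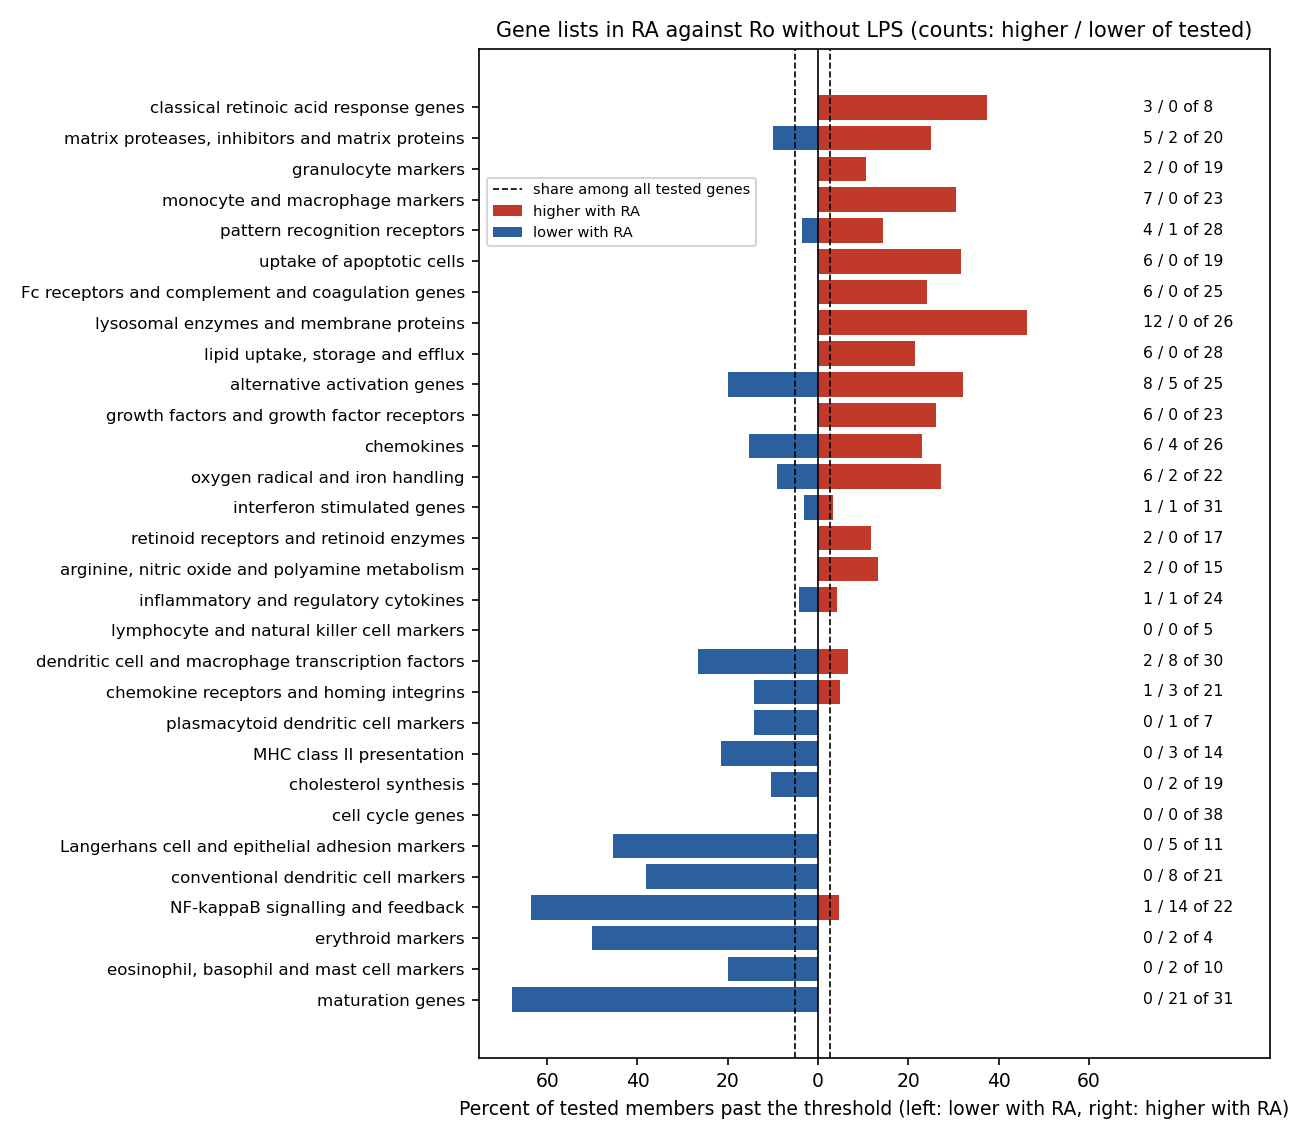
Bars show the percent of tested members of each of 30 gene lists called higher with RA (right, red) or lower with RA (left, blue), with the counts at the right and the shares among all tested genes (2.62% higher, 5.04% lower) as dashed lines. Lysosomal genes reach 12 higher and 0 lower of 26, and maturation genes 0 higher and 21 lower of 31.

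The control cultures without either agent show where RA and Ro lay around them. The comparisons of RA and of Ro with control share the control arrays, so that their values are given side by side only. Of the 12429 tested genes, 16 were called for RA against control and 327 for Ro against control. The genes counted here were called on the same RA and Ro arrays, and that choice by itself favours a control between the agents. How many of all tested genes had the control between the agents, or nearer to RA, was not counted. Among the 326 genes higher with RA than with Ro, the median change from control was 0.52 for RA and -1.41 for Ro, and the control lay between the agents for 283. Among the 627 lower genes it was -0.65 for RA and 0.79 for Ro, with the control between for 572. Control was nearer to RA than to Ro for 268 of the 326 higher and for 357 of the 627 lower genes. Rnase2a read 8333 and 3948 in control cultures, a range that holds both RA signals, and changed from control by 0.13 with RA and -6.18 with Ro. Arg1 read 267 and 124 in control cultures, with changes of 3.94 for RA and -3.49 for Ro, both called (limma adjusted p = 0.0134 and 0.00686). Fcgr4 read 353 and 449, with changes of 2.68 and -2.25, neither called (limma adjusted p = 0.074 and 0.0537). For Ccr7 the control signals were 3397 and 2647 and the changes -2.11 with RA and 0.76 with Ro. Neither change of Ccr7 was called (limma adjusted p = 0.0532 and 0.21). For Traf1 the control signals were 346 and 397, with changes of -2.35 and 1.35. Cd207 and Asgr2 changed from control by -0.18 and -2.88 with RA and by 4.90 and 2.89 with Ro. Their changes with Ro were called (limma adjusted p = 0.0017 and 0.00855) and those with RA were not (0.994 and 0.0508).

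The same pair of agents was also compared in cultures with LPS, on 4 other arrays. There 2008 genes (16.2%) were called, 631 higher with RA (5.08%) and 1377 lower (11.1%). The number was 1112 without the Ro BL6 array with LPS, 1130 without the Ro BALB/c array with LPS and 1289 without the RA BALB/c array with LPS. Of the 326 genes higher without LPS, 186 were also higher with it and 4 were lower, and their median change went from 1.96 to 1.43. Of the 627 lower genes, 359 were also lower with LPS and 4 were higher, and the median went from -1.42 to -0.96. Both sets were chosen by their change without LPS, a choice that by itself favours a smaller median on other arrays. These medians therefore do not show that LPS made the difference between RA and Ro smaller. Arg1 was higher with RA in both settings (6.50 ± 0.49 with LPS, limma adjusted p = 1.03e-04), as were Rnase2a (5.81 ± 0.27), Igf1 (4.89 ± 0.34) and Apoe (5.88 ± 0.51). Of the 31 maturation genes 13 were lower with RA in the presence of LPS, with a median of -0.46. Of the 23 macrophage markers 16 were higher with RA there and none lower, with a median of 2.32. Cd40 changed by -0.59 ± 0.26 there (limma adjusted p = 0.0639) and Cd207 by -0.49 ± 0.56 (adjusted p = 0.44).

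The difference between these 2 comparisons was tested itself, as RA minus Ro without LPS less the same with LPS. It was called for 79 genes (0.636%), 24 of them positive and 55 negative, and 1382 genes had an unadjusted p below 0.05. Leaving out 1 of the 8 arrays gave from 2 to 75 genes. It was 2 without the Ro BALB/c array with LPS, 6 without the RA or the Ro BALB/c array without LPS, 12 without the Ro BL6 and 17 without the RA BL6 array without LPS, and 24 without the RA BALB/c array with LPS. Apoc2 had the largest positive difference: with LPS it read 916 and 1631 with RA and 5545 and 3413 with Ro, the opposite order of the arrays without LPS, and the difference was 6.00 ± 0.47 (limma adjusted p = 7.28e-04). Pdgfc was also turned, at 45.6 and 86.9 with RA and 267 and 292 with Ro in the presence of LPS (4.76 ± 0.43, limma adjusted p = 0.00149). These 2 differences kept their calls without any 1 of the 8 arrays. C1qa, a chain of the complement component C1q, was not called without LPS, at 13117 and 12715 with RA and 10869 and 10020 with Ro, and with LPS it read 5435 and 6944 with RA and 289 and 472 with Ro (-3.71 ± 0.37). Hspa1b, an inducible heat shock protein, was near or below the highest array median without LPS (28.4 and 27.98 with RA and 52.5 and 34.2 with Ro) and read 3947 and 2510.5 with RA and 142 and 216 with Ro in its presence (-4.48 ± 0.47). Both calls were lost without the Ro BALB/c array with LPS (adjusted p = 0.0533 and 0.06).

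**Figure D5:**
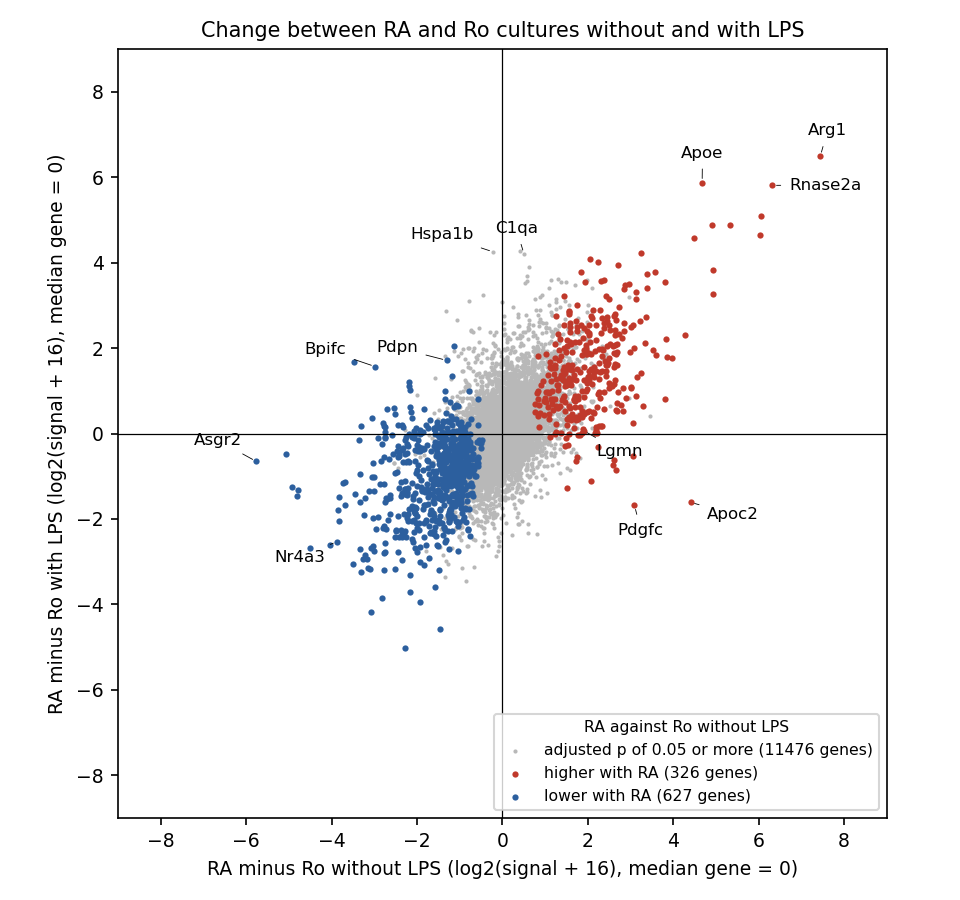
Each point is 1 of 12429 tested genes, plotted by RA minus Ro without LPS (horizontal) and with LPS (vertical), on the scale of log2(signal + 16) with the median gene at 0. Most of the 326 higher (red) and 627 lower (blue) genes keep their side, and Apoc2 and Pdgfc lie on opposite sides of 0 without and with LPS.

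Whether RA and Ro differed by another amount in BALB/c than in BL6 was tested with 1 added term in the model. No gene was called by limma, and 290 of the 12429 tested genes had an unadjusted p below 0.05. When 64 in place of 16 was added before the logarithm, 1 gene was called. Across the 12429 genes the differences RA minus Ro of the 2 strains had a Pearson r of 0.684 and a Spearman rho of 0.593, given as a description, since all genes share the same 4 arrays. With 1 array for each strain and agent the term borrows its spread from the other conditions, so that these counts do not show that the strains respond alike.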

How the data were processed

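RNA of 12 cultures was measured on 12 Affymetrix arrays, 1 per culture. The deposited values are intensities on a linear scale, from 0.0195 to 17488, 1 per probe set and array. The submitters' processing notes name MAS5; its version and target intensity are not given in the sources used here. Of 45101 probe sets, 34945 named 1 gene, 932 several and 9160 none, and 64 were controls. No depth applies, and the number of arrays limits the precision.

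The scale of log2(intensity + 16) was used, which understates the changes of dim genes. Probe sets that exceeded their array's median on 2 or more arrays were kept, and the brightest of them by mean log2 value stood for its gene, which left 12429 genes. limma 3.58.1 in R 4.3.3 (lmFit, eBayes with an intensity trend) fitted the 6 conditions plus strain to all 12 arrays, with 5 residual degrees of freedom. Strain was a block because the labels tie replicate 1 to BALB/c and replicate 2 to BL6. Strain differences correlated between conditions, with r of 0.297 at the lowest and 0.696 at the highest of 15 pairs. Strain and any batch shared by arrays of 1 replicate number cannot be separated. The fit was checked on simulated data.

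The text names the 12 largest called changes in each direction, up to 3 called members of each list with the smallest p, the classical retinoid genes with Rara and Aldh1a2, and the 5 smallest p in each direction of the differences by LPS and by strain. Other list members were named after their values were seen. Members and gene lists were chosen with earlier results of these data known. Alternatives were quantile normalization, centring on array medians, pseudocounts of 1 and 64, other filters and probe set rules, no trend, no block, the arrays of a comparison alone and each array left out. Promoter windows came from RefSeq.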

Additional observations from a re-analysis of the deposited data

Results flagged for a closer look

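RA minus Ro without LPS differed from RA minus Ro with LPS in 79 genes by a test of that difference itself, limma's interaction contrast with Benjamini-Hochberg adjustment. The 5 genes with the smallest p in each direction are given here as RA minus Ro without LPS less the same with LPS, on the log2 scale. The largest on the positive side was Apoc2 (6.00 ± 0.47, adjusted p = 7.28e-04), and Pdgfc followed (4.76 ± 0.43, adjusted p = 0.00149). Rap1gap2, a regulator of the small GTPase Rap1, differed by 3.17 ± 0.46 (limma adjusted p = 0.0204). Sesn1, a stress-induced inhibitor of growth signalling, differed by 2.78 ± 0.35 (limma adjusted p = 0.0136). Lgmn, the lysosomal endopeptidase, differed by 1.82 ± 0.25 (limma adjusted p = 0.0186).

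On the negative side Asgr2 differed by -5.13 ± 0.67 (limma adjusted p = 0.0153): with LPS it read 5.83 and 13.7 with RA and 38.8 and 23.01 with Ro. Bpifc differed by -4.56 ± 0.53 (adjusted p = 0.00827), and with LPS it read 51.4 and 34.6 with RA and 7.15 and 6.35 with Ro. Hspa1b, the heat shock gene, differed by -4.48 ± 0.47 (limma adjusted p = 0.00429) and C1qa, the complement gene, by -3.71 ± 0.37 (adjusted p = 0.00351). Pdpn, podoplanin, a ligand of CLEC-2, differed by -3.03 ± 0.39 (limma adjusted p = 0.0153). With each of the 8 arrays left out in turn, Apoc2 and Pdgfc kept their calls. C1qa and Hspa1b lost theirs without the Ro BALB/c array with LPS only. Bpifc lost its call without either Ro BALB/c array, with or without LPS. Asgr2, Lgmn and Pdpn lost theirs without the RA BALB/c, the Ro BALB/c or the Ro BL6 array without LPS, or the Ro BALB/c array with LPS. Sesn1 lost its call without 3 arrays (Ro BALB/c and RA BL6 without LPS, Ro BALB/c with LPS) and Rap1gap2 without 5 (RA BALB/c, Ro BALB/c and Ro BL6 without LPS, and both BALB/c arrays with LPS). The adjusted p without 1 array reached 0.0831 for Asgr2, Bpifc, Pdpn and Sesn1, 0.0958 for Lgmn and 0.104 for Rap1gap2. With no replicate block the calls of Bpifc, Lgmn and Pdpn (adjusted p = 0.0717 each), Sesn1 (0.16) and Rap1gap2 (0.272) were lost. Asgr2 lost its call with pseudocount 1 (limma adjusted p = 0.0512) and Lgmn with no intensity trend (0.0588).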

How the results depend on the processing

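Counts of called genes moved most with the strain block and with the number of arrays fitted. RA against Ro without LPS gave 953 genes, 326 higher and 627 lower. It gave 434 with no replicate block (158 higher, 276 lower) and 1883 with the 4 arrays alone (641 higher, 1242 lower). With 1 array left out there were 424 to 464 in all, 127 to 178 higher and 283 to 324 lower. The higher genes numbered 563 after quantile normalization and 510 after centring each array on its median. With LPS the count went from 2008 to 877 with no replicate block and to between 1112 and 1876 with 1 array left out. The 79 genes whose difference depended on LPS became 18 with pseudocount 1, 137 with pseudocount 64, 36 without the filter, 32 over all probe sets, 32 with no intensity trend, 7 with no replicate block and 2 to 75 with 1 array left out. The strain difference gave 0 genes, and 1 with pseudocount 64. Epcam went from 0.01 to -1.66 as the mean over its probe sets. The stricter filter tested 73 of the 75 called genes named by rule, and a gene that it dropped counts as kept below. Of 75 called genes named by rule, 52 kept their call in all 14 refits, 55 in the 4 with 1 array left out and 60 in the 10 others; no replicate block lost 15. Among all called genes that the text names, calls were lost with no replicate block for Abca1, Adam19, Birc2, C5ar1, Ccl8, Ccl9, Ccrl2, Cdh1, Clec7a, Cpa3, Cybb, Dpp4, F5, F7, Fabp4, Gpnmb, H2-Ob, Hexa, Id2, Idi1, Irf4, Lamp2, Marcksl1, Mmp9, Mrc1, Mx1, Nfkbib, Plin2, Prg2, Rap1gap2, Rel, Runx3, Sesn1, Siglech, Slamf1, Slc11a1, Slc40a1, Srebf2, Tfrc, Tnfrsf9, Tpp1, Traf2, Txnrd1 and Vegfb. They were lost with no intensity trend for Abca1, Ccl9, Clec7a, Ctsa, Ctsb, Cybb, F5, Hexa, Id2, Idi1, Lamp1, Lamp2, Marcksl1, Mrc1, Mx1, Nfkbia, Plin2 and Txnrd1. The mean over probe sets lost Abca1, Ctsa, Ctsl, Lamp2, Nfkbib, Runx3, Slamf1 and Txnrd1, and no filter lost Ccl8, Ccl9, Ctsb, Cybb, F5, Hexa and Lamp2. Pseudocount 1 lost Apoc1, C5ar1, F5, Lamp2, Mrc1, Prg2 and Siglech, and pseudocount 64 lost Ccl8, Cpa3 and Slamf1. Quantile normalization lost Cpa3, Id2, Prg2, Siglech and Traf2, and centring on array medians lost Id2, Idi1, Nfkbib, Siglech and Txnrd1. The causes were not tested. Signals near the highest array median limit dim genes: 217 of the 953 called genes had a group mean below it.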

Other observations

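No gene passed the threshold for a difference of RA minus Ro between the strains, but neutrophil precursor genes had the smallest p on the positive side. Elane read 1050.1 and 148 with RA and 37.7 and 449 with Ro (BALB/c less BL6, 5.56, limma unadjusted p = 5.16e-05, adjusted p = 0.321). Ctsg, cathepsin G, read 196 and 43.1 with RA and 2.45 and 546 with Ro (6.52, adjusted p = 0.358), and Ms4a3, a membrane protein of the same precursors, 1365 and 172 with RA and 149 and 980.3 with Ro (5.22, adjusted p = 0.358). Prtn3, proteinase 3, read 4244 and 581 with RA and 102 and 441 with Ro; it was chosen after its values were seen. In all 4 genes the RA BALB/c array was above the RA BL6 array and the Ro BL6 array above the Ro BALB/c array. Choosing genes by this difference or by their values favours that order by itself, so that it is a description only. The part of granulocyte precursors in other differences was not tested.

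The others on that side were Cyp1b1, a cytochrome P450 (4.01, adjusted p = 0.41), and Trgv4, a T cell receptor segment (5.96, adjusted p = 0.569). On the negative side Flt3, the receptor of the dendritic cell growth factor FLT3 ligand, read 5.77 and 51.5 with RA and 101 and 37.7 with Ro (-3.01, limma adjusted p = 0.868). Cd5l, a secreted macrophage protein, read 40.6 and 1416 with RA and 98.6 and 61.8 with Ro (-5.47, adjusted p = 0.705). Blnk, an adaptor of B cell receptor signalling, differed by -3.29, Utf1 by -3.54 and 2610316D01Rik by -4.71, all with an adjusted p of 0.321 or more.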
